A study of Mus musculus with 6 samples.

Results

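The genes described here are 35 members of cholesterol and fatty acid synthesis, chosen by symbol from the 23622 genes measured in cultures of mouse bone progenitors. They comprise 18 enzymes of the sterol route, 5 genes that regulate the route or transport sterol, and 12 enzymes that make, elongate or desaturate fatty acids. Polyadenylated RNA was sequenced from 6 untreated primary cultures of bone marrow from C57BL/6 mice aged 2 weeks, at culture generation 3. The labels put 3 cultures in the group Ift140-/- (cko), called cKO here, and 3 in the wild-type control group, each numbered 2, 3 and 4. Ift140 encodes a subunit of the intraflagellar transport complex A, which returns cargo from the tip of the primary cilium, and the study as titled asks how Ift140 made by osteoblasts bears on insulin sensitivity. The labels used here name neither the Cre line nor its promoter, and they do not say which mice or litters gave the cultures, so the p-values measure the spread between these samples.

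Cells make cholesterol from acetyl-CoA through mevalonate, isoprenoid units, squalene and lanosterol. Fatty acid synthesis starts from the same acetyl-CoA, which acetyl-CoA carboxylase turns to malonyl-CoA for fatty acid synthase before elongases and desaturases act on the product. Both routes are controlled by the SREBP transcription factors, which leave the endoplasmic reticulum with their escort SCAP when membrane sterol is low, while INSIG proteins hold them back when it is high. Genes of both routes are known for promoters that pair sterol regulatory elements with CCAAT boxes, the sites of NF-Y.

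Promoters of 28 of the 35 members were found in the RefSeq table of mouse promoters (GRCm38.p6), 35 promoters in all, each from 250 bases before to 50 after the annotated start. The letters TCACNCCAC, a sterol regulatory element, were searched on both strands, and so were the letters CCAAT. No match of one overlapped a match of the other. The element was found in 1 of the 35 promoters (2.86%), against 1.24% of all 32851 promoters of the same length. That promoter belongs to Hmgcs1, whose enzyme commits acetyl-CoA units to the mevalonate route. CCAAT was found in 24 of the 35 (68.6%), against 37.4% of all promoters. By role it was in 14 of 18 promoters of sterol enzymes, 4 of 7 of regulators and 6 of 10 of fatty acid enzymes. A missing match says only that these letters are not in this window.

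The 3 promoters below were chosen because Hmgcs1 holds the single sterol element, Idi1 had the largest difference between groups among the sterol enzymes in log2 fold change and in ratio, and Mvk, the next enzyme after HMG-CoA is reduced, held 5 CCAAT matches and differed little between groups. They lie on the plus strand at chr13:119690101-119690400 for Hmgcs1, chr13:8885356-8885655 for Idi1 and chr5:114444019-114444318 for Mvk. Capitals mark CCAAT, or ATTGG where it lies on the other strand, and the sterol element TCACCCCAC in Hmgcs1.
Hmgcs1: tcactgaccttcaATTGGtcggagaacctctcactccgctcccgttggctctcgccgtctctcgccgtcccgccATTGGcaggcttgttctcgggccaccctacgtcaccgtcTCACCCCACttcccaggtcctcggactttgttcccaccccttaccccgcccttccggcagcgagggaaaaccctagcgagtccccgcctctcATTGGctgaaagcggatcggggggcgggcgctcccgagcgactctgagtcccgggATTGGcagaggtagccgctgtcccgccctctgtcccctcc
Idi1: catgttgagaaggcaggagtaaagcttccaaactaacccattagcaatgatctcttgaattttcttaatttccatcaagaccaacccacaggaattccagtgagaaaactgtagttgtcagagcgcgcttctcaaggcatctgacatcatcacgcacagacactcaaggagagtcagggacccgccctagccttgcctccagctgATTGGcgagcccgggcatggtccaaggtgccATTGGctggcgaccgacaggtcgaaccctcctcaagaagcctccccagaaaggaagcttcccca
Mvk: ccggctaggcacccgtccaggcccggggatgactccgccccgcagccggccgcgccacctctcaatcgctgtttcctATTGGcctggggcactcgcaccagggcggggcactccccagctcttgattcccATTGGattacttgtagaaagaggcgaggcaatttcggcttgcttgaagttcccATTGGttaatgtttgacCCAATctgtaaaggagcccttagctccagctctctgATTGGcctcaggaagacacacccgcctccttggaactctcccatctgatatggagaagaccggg
In Hmgcs1 the sterol element lay from -137 to -129 relative to the start, between CCAAT matches at -176 to -172 and -45 to -41. Idi1 carried CCAAT at -45 to -41 and -14 to -10 and no match to the element.

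**Figure D1:**
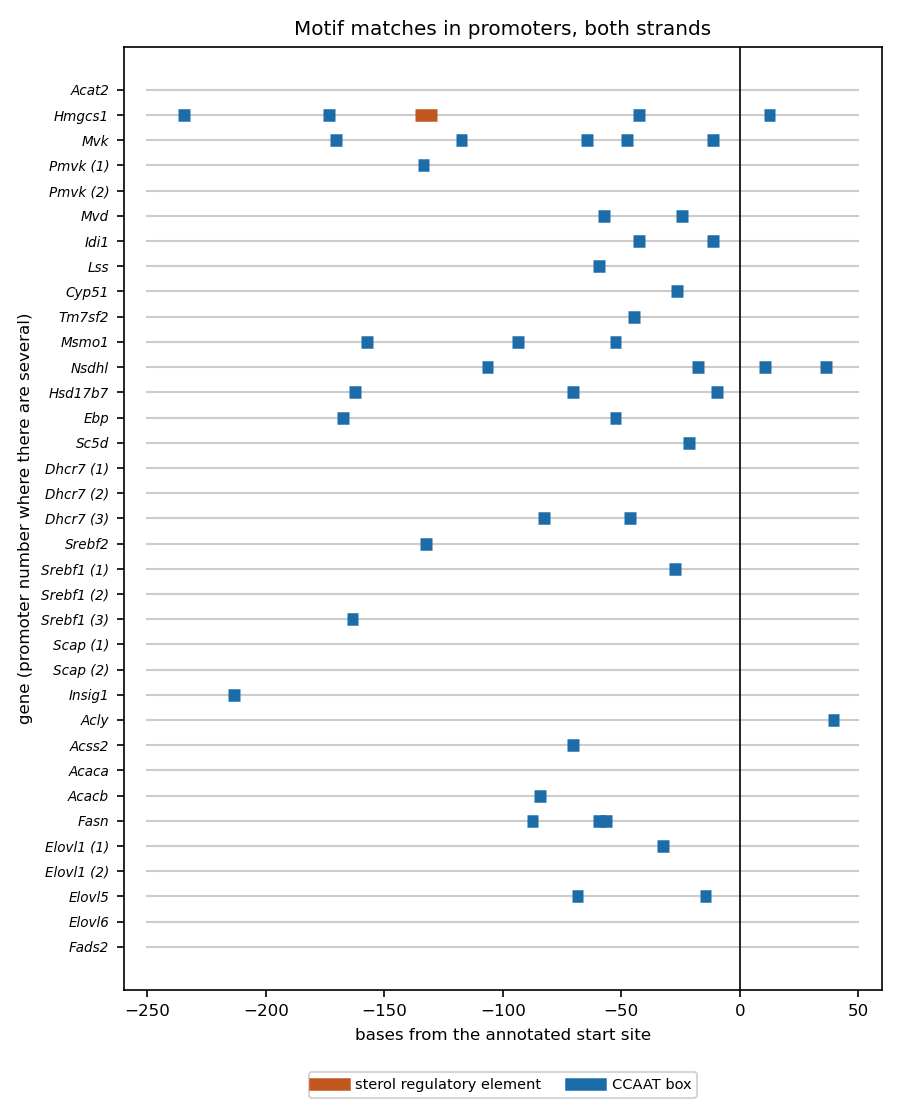
Each line is 1 of 35 promoters of 28 member genes, drawn from 250 bases before to 50 bases after the annotated start site (x axis, bases). Orange marks the sterol regulatory element, present only in Hmgcs1 in this set, and blue marks CCAAT matches on either strand, present in 24 promoters, which reach 5 in Mvk and 4 each in Hmgcs1 and Nsdhl.

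Across the table, FPKM (fragments scaled by gene length and library size) was tested with limma on log2(FPKM + 1) for the 13326 genes whose mean reached 0.5 FPKM, which understates the change of low genes. Calls are genes with a Benjamini-Hochberg adjusted p under 0.05 over all of them. By this rule 672 genes were higher (5.04%) and 342 lower (2.57%) in cKO, so 66.3% of calls were higher, against 52.1% after quantile normalization and 55.1% after median centring. Groups that did not overlap, with every cKO library above or every cKO library below the controls, were found for 17.9% and 17.8% of tested genes. Ift140 itself had 1.72, 1.74 and 1.90 FPKM in cKO 2, 3 and 4, against 3.11, 2.75 and 3.05 FPKM in controls 2, 3 and 4, so it was lower but present (log2 fold change -0.51, SE 0.07, limma adjusted p = 0.0138). Its adjusted p was 0.0599 without cKO 3, 0.0721 without control 4, 0.0633 with a term for the replicate number and 0.0776 with that term and a correction for GC content. The totals behind the FPKM were 17180101 to 28283414 reads in cKO and 20158329 to 21581625 in controls. Xist was at 36.6 to 40.3 FPKM in cKO and 0.0443 to 0.119 FPKM in controls, and the Y-linked genes Eif2s3y, Kdm5d and Uty were at 0 in every cKO library. The genotype and this sex pattern cannot be told apart, for any gene below. In bulk RNA, fewer cells of a type and less RNA per cell cannot be told apart either.

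Among the members, the desaturases Scd2 and Scd1 and the carboxylase Acaca fell in cKO, and the SREBP escort Scap rose. The other 30 tested members were not called, and 1 member, Fdps, lay below the filter on low values. Thus 3 of 34 were lower against 2.57% of all tested genes, and 1 of 34 was higher against 5.04%. The groups did not overlap for 18 members that lay lower in cKO and 4 that lay higher, against 17.8% and 17.9% of all tested genes. The log2 fold change was below 0 for 24 of 34 members, against 50.3% of all tested genes, and its median was -0.18, against -0.001 over all tested genes. An unadjusted p under 0.05 was reached by 16 of the 34 members (47.1%), against 3841 of all 13326 tested genes (28.8%), the share beside which the counts at an unadjusted p below are to be read.

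**Figure D2:**
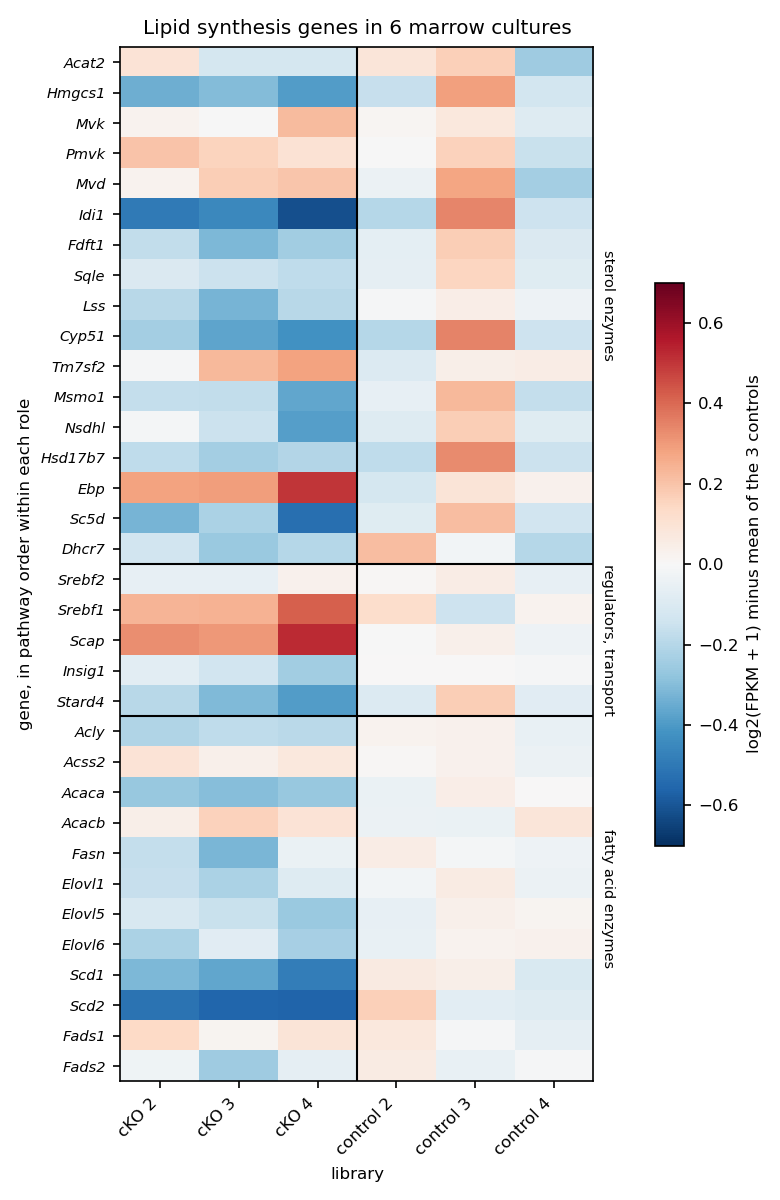
Each row is a member gene in pathway order within its role and each column a library, cKO 2 to 4 left of controls 2 to 4, coloured by log2(FPKM + 1) minus the mean of the 3 controls. Scd2, Scd1 and Acaca are lower in all 3 cKO libraries, Scap is higher in all 3, and many sterol rows have their highest value in control 3.

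**Figure D3:**
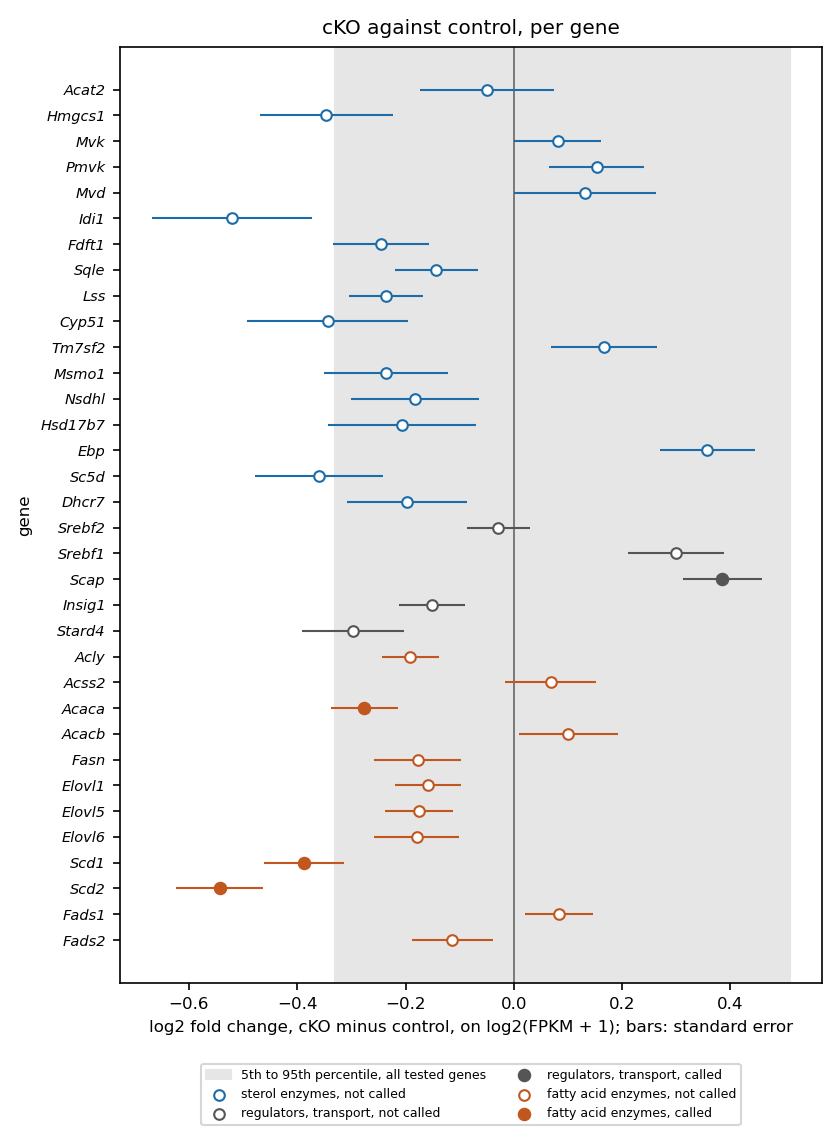
Points are log2 fold changes of cKO minus control on the log2(FPKM + 1) scale for the 34 tested members, with standard errors as bars and filled points for called genes. The grey band holds the middle of all tested genes, from the 5th to the 95th percentile. Scd2 at -0.54 and Idi1 at -0.52 lie farthest below 0, and Scap at 0.38 and Ebp at 0.36 farthest above it.

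The genes of stearoyl-CoA desaturation fell, and with log2(FPKM + 1) values Scd2 had the lowest log2 fold change of the members. As a ratio of mean FPKM the uncalled Idi1 lay lower, at 0.624-fold against 0.678-fold for Scd2. Scd2 and Scd1 encode delta-9 desaturases that turn saturated fatty acids into monounsaturated ones. Scd2 (ENSMUSG00000025203, chr19:44293674-44306864, plus strand of GRCm38) had 39.1, 38.0 and 37.9 FPKM in cKO 2, 3 and 4, against 63.3, 53.4 and 52.7 FPKM in controls 2, 3 and 4. The 3 cKO libraries lay close together and below every control. The means were 38.3 ± 0.675 FPKM in cKO and 56.5 ± 5.89 FPKM in controls (SD, n = 3 each), a 0.678-fold level (log2 fold change -0.54, SE 0.08, limma adjusted p = 0.0162).

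Scd1 (chr19:44394455-44407879, minus strand), which lies close to Scd2, had 9.58, 9.24 and 8.43 FPKM in cKO 2, 3 and 4, against 12.8, 12.6 and 11.2 FPKM in controls 2, 3 and 4. Again no cKO library reached a control. The means were 9.08 ± 0.591 FPKM in cKO and 12.2 ± 0.853 FPKM in controls (SD, n = 3 each; log2 fold change -0.39, SE 0.07, limma adjusted p = 0.0300). Transcripts of the pair match at 95.5% over 623 bases, so some reads could be split between them. Their sum was 47.4 ± 1.19 FPKM in cKO and 68.7 ± 6.48 FPKM in controls, and Scd2 made up 80.8% of it in cKO and 82.2% in controls. The paralogs Scd3 and Scd4 stayed under 0.07 FPKM in all libraries.

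Acaca encodes the cytosolic acetyl-CoA carboxylase that makes malonyl-CoA for synthesis, and it lay at a low level. It (chr11:84129672-84401651, plus strand) had 2.18, 2.11 and 2.17 FPKM in cKO 2, 3 and 4, against 2.70, 2.94 and 2.82 FPKM in controls 2, 3 and 4, with no overlap. The means were 2.16 ± 0.0396 FPKM in cKO and 2.82 ± 0.123 FPKM in controls (SD, n = 3 each; log2 fold change -0.28, SE 0.06, limma adjusted p = 0.0458). Its paralog Acacb, whose product makes malonyl-CoA at mitochondria, averaged 0.553 ± 0.0661 FPKM in cKO and 0.449 ± 0.0747 FPKM in controls, with overlapping groups (adjusted p = 0.509) and a direction that turned after the GC correction. The sum of both was 2.71 ± 0.0321 FPKM in cKO and 3.27 ± 0.143 FPKM in controls. A processed pseudogene, Gm5182, matches Acaca at 99.2% over 6118 bases and may share its reads.

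These 3 calls lay near the threshold. Scd2 kept its call in 15 of 21 alternative fits, with adjusted p from 0.00581 to 0.0769. Without cKO 2, cKO 3, cKO 4 or control 4 it was 0.0507, 0.0665, 0.0503 and 0.0604, and without control 2 or control 3 it was 0.0209 and 0.0197. Scd1 and Acaca each kept theirs in 11 of 21 fits and lost it whichever library was left out, with adjusted p of 0.0545 to 0.0949 for Scd1 and 0.0648 to 0.148 for Acaca. The fitted log2 fold change stayed below 0 for all 3 genes in all 21 fits. With a term for the replicate number the adjusted p was 0.0580 for Scd2, 0.0659 for Scd1 and 0.133 for Acaca, and with that term and a correction for GC content it was 0.0769, 0.0845 and 0.174.

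The other fatty acid enzymes were not called (0 by limma and by voom on recovered reads). An unadjusted p under 0.05 was reached by 3 of the 9, or 33.3%, against 28.8% of all tested genes. Without overlap 5 lay lower and 1 lay higher in cKO, against 17.8% and 17.9% of all tested genes. Acly, which splits citrate to supply cytosolic acetyl-CoA, had the largest log2 fold change of these, with log2(FPKM + 1) values shrinking low genes. In mean FPKM it differed by -12.8%, whereas the low genes Elovl6, Acacb and Acss2 differed by -19.1%, 23.2% and 14.97%. Its levels were 31.9, 32.6 and 32.4 FPKM in cKO 2, 3 and 4, against 37.7, 37.8 and 35.6 FPKM in controls 2, 3 and 4, with no overlap (log2 fold change -0.19, SE 0.05, limma adjusted p = 0.0716). Acly was called lower in 2 of 21 alternative fits, with a lowest limma adjusted p of 0.0387. Fasn, the fatty acid synthase, averaged 19.4 ± 1.94 FPKM in cKO and 22.0 ± 0.718 FPKM in controls, also without overlap (adjusted p = 0.198). After a GC correction Fasn was the only further fatty acid enzyme called (log2 fold change -0.32, limma adjusted p = 0.0431), while Scd1 and Acaca then had adjusted p of 0.05005, just above the threshold, and 0.0782. The elongases Elovl1, Elovl5 and Elovl6 had 35.8 ± 1.69, 14.9 ± 0.845 and 1.26 ± 0.136 FPKM in cKO, against 40.1 ± 1.49, 16.9 ± 0.598 and 1.55 ± 0.0825 FPKM in controls, each without overlap (adjusted p = 0.144, 0.127 and 0.191). Elovl1 acts on very long chains, Elovl5 on polyunsaturated chains and Elovl6 on the saturated products of the synthase.

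The front-end desaturases of polyunsaturated fatty acids were not called. Fads1, the delta-5 desaturase, averaged 42.7 ± 1.87 FPKM in cKO and 40.2 ± 1.98 FPKM in controls, and Fads2, the delta-6 desaturase, 30.6 ± 2.54 FPKM in cKO and 33.2 ± 1.30 FPKM in controls (SD, n = 3 each; limma adjusted p = 0.425 and 0.360). Both overlapped between the groups. Their sum was 73.3 FPKM in cKO and 73.4 FPKM in controls. Acss2, which makes acetyl-CoA from acetate, averaged 0.544 ± 0.0337 FPKM in cKO and 0.473 ± 0.0384 FPKM in controls, without overlap (adjusted p = 0.632). Acss2 and Acacb passed the filter on low values only narrowly and only through cKO, with control means under 0.5 FPKM.

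**Figure D4:**
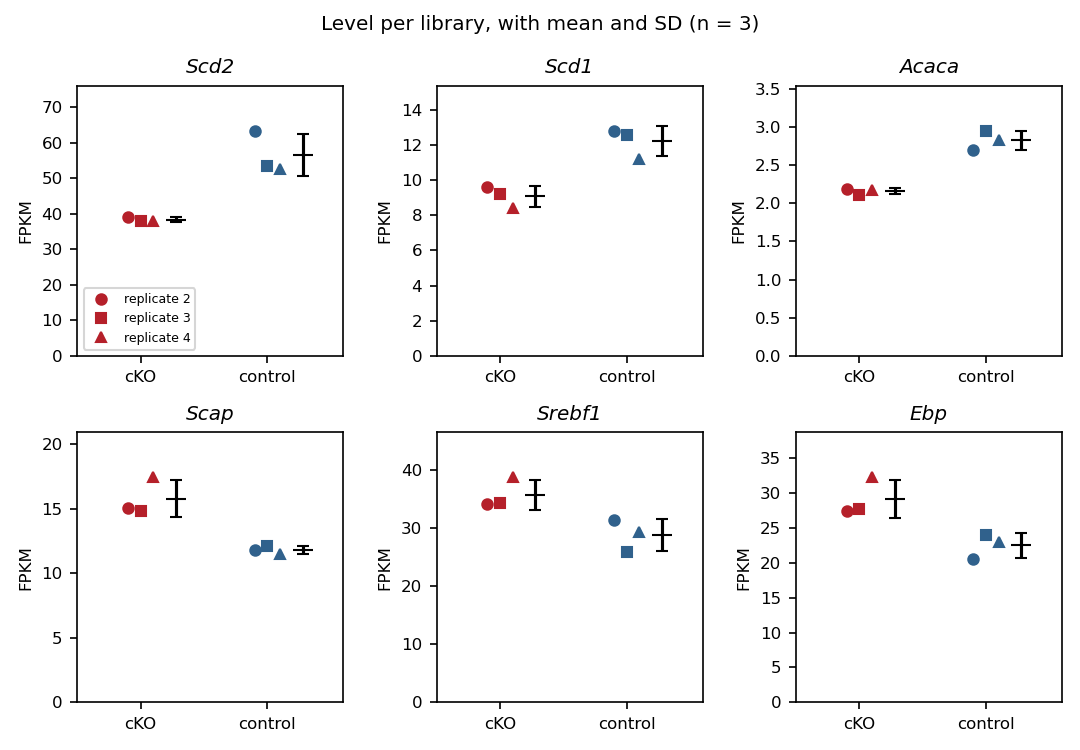
Level in FPKM of 6 members in each library, cKO left of control, with the mean and SD of 3 libraries and a marker shape for each replicate number; axes start at 0. Scd2, Scd1 and Acaca lie lower and Scap, Srebf1 and Ebp higher in cKO, with no overlap in any of the 6, and of these Srebf1 and Ebp did not pass the test.

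Among the regulators 1 gene was called. Scap encodes the sterol-sensing escort of the SREBPs and was the only member called higher. It (chr9:110333288-110384950, plus strand) had 15.1, 14.8 and 17.4 FPKM in cKO 2, 3 and 4, against 11.8, 12.1 and 11.5 FPKM in controls 2, 3 and 4, so all 3 cKO libraries lay above the controls. The means were 15.8 ± 1.43 FPKM in cKO and 11.8 ± 0.307 FPKM in controls (SD, n = 3 each; 1.33-fold, log2 fold change 0.38, SE 0.07, limma adjusted p = 0.0299). Its call held in 12 of 21 alternative fits. Without control 3 the adjusted p was 0.0420, and without each other library it was 0.0538 to 0.121, being 0.0693, 0.0727 and 0.0538 without cKO 2, 3 and 4 and 0.0590 and 0.121 without controls 2 and 4. Scap has a GC content of 59.1%, and after the GC correction its log2 fold change was 0.20 with an adjusted p of 0.0996. With a term for the replicate number the adjusted p was 0.0951. A transcript on the other strand, 5830462I19Rik, covers 13.2% of its exon bases. That gene was itself at a mean of 0.0291 FPKM in cKO and 0.0287 FPKM in controls, with 1 to 3 reads per library.

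Srebf1, which encodes SREBP-1, the form best known for driving fatty acid genes, had 34.1, 34.2 and 38.7 FPKM in cKO 2, 3 and 4, against 31.4, 25.9 and 29.2 FPKM in controls 2, 3 and 4. The groups did not overlap, but the gene was not called (log2 fold change 0.30, SE 0.09, limma adjusted p = 0.0875). Srebf2, whose product drives sterol genes, had 51.5, 51.4 and 54.8 FPKM in cKO 2, 3 and 4, against 53.8, 55.5 and 51.5 FPKM in controls 2, 3 and 4. Its groups overlapped (log2 fold change -0.03, SE 0.06, adjusted p = 0.779). Insig1, which retains the SCAP complex and is itself an SREBP target, had 23.4, 22.4 and 20.7 FPKM in cKO 2, 3 and 4, against 24.7, 24.8 and 24.6 FPKM in controls 2, 3 and 4. All cKO libraries lay below the controls, and the difference was not called (log2 fold change -0.15, SE 0.06, adjusted p = 0.158). Stard4, a carrier that moves cholesterol between membranes, had 4.63, 4.20 and 3.92 FPKM in cKO 2, 3 and 4, against 5.03, 6.26 and 5.09 FPKM in controls 2, 3 and 4. It too lay lower without overlap and was not called (log2 fold change -0.30, SE 0.09, adjusted p = 0.101).

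No sterol enzyme was called by limma, higher or lower, and 6 of the 17 tested (35.3%) had an unadjusted p under 0.05, against 28.8% of all tested genes. With voom on recovered reads 1 was higher, Ebp (adjusted p = 0.0352), and 1 lower, Lss (adjusted p = 0.0398). Their median log2 fold change was -0.20, and 12 of 17 were below 0. In cKO 8 lay lower and 1 higher without overlap, that is 47.1% and 5.88% of the 17, against 17.8% and 17.9% of all tested genes. The 12 sterol enzymes with a log2 fold change below 0 had a median GC content of 46.0% and the 5 above 0 had 56.3%, against 49.8% over all tested genes. After the GC correction their median log2 fold change was -0.12, 14 of 17 were below 0 and none was called by limma.

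Idi1, which interconverts the isoprenoid units, had the largest difference among the sterol enzymes. It (chr13:8885501-8892451, plus strand) had 3.11, 3.23 and 2.77 FPKM in cKO 2, 3 and 4, against 4.03, 6.33 and 4.23 FPKM in controls 2, 3 and 4. The groups did not overlap and control 3 stood highest, so that the means of 3.03 ± 0.234 FPKM in cKO and 4.87 ± 1.27 FPKM in controls (SD, n = 3 each) gave a log2 fold change of -0.52 (SE 0.15, limma adjusted p = 0.0790). Without control 3 the adjusted p was 0.0510. A processed pseudogene, Gm13502, matches Idi1 over 684 bases and may share its reads.

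The steps around Idi1 were uneven. Of the mevalonate enzymes before it, Hmgcs1 averaged 25.1 ± 0.798 FPKM in cKO and 32.5 ± 6.08 FPKM in controls, without overlap (adjusted p = 0.126), while the kinases Mvk and Pmvk and the decarboxylase Mvd had log2 fold changes of 0.08, 0.15 and 0.13 with overlapping groups, those of Mvk and Mvd turning to -0.0197 and -0.0508 after the GC correction. Acat2, which joins acetyl-CoA units at the start, had one of -0.05, which turned to 0.0347 without control 3. Transcripts of Tcp1 and Acat3 match Acat2 at 98.7% over 445 bases and 97.7% over 1477 bases and may share its reads. Tcp1 averaged 24.9 FPKM in cKO and 31.0 FPKM in controls, and Acat3 0.301 and 0.274 FPKM. From squalene synthesis to lanosterol, Fdft1, Sqle and Lss had log2 fold changes of -0.25, -0.14 and -0.24, each without overlap. Ctsb, on the other strand, shares 18.3% of the exon bases of Fdft1 and had 629 to 751 FPKM in cKO and 362 to 724 FPKM in controls, and strandedness is not given, so the level of Fdft1 is uncertain. Fdps, the farnesyl diphosphate synthase, rested on 23 to 46 reads in cKO and 28 to 55 in controls, at 0.345 ± 0.0418 FPKM in cKO and 0.434 ± 0.150 FPKM in controls. It has several processed pseudogenes, of which Gm3571 matches it at 98.9% over 1062 bases. Another gene on the same strand, Gm43738, shares 26.7% of its exon bases and matches it at 100% over 929 bases. How reads shared by both genes were counted is not given, so the level of Fdps here is uncertain.

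After lanosterol most enzymes lay lower and 2 lay higher. Cyp51, the lanosterol demethylase, had 13.9 ± 1.02 FPKM in cKO and 18.1 ± 4.18 FPKM in controls (log2 fold change -0.34, limma adjusted p = 0.183), and Sc5d, the sterol desaturase of a late step, 9.96 ± 1.15 FPKM in cKO and 13.1 ± 1.89 FPKM in controls (-0.36, adjusted p = 0.108), both without overlap. Hsd17b7, a sterol ketoreductase, also lay lower without overlap (-0.21), whereas Msmo1 and Nsdhl, which act with it in removing methyl groups, and Dhcr7, which makes cholesterol from its last precursor in one branch, overlapped (-0.24, -0.18 and -0.20). The reductase Tm7sf2 overlapped at 0.17. Ebp, the sterol isomerase, stood out on the other side. It (chrX:8185329-8193512, minus strand) had 27.4, 27.6 and 32.2 FPKM in cKO 2, 3 and 4, against 20.51, 23.97 and 22.93 FPKM in controls 2, 3 and 4, every cKO library above every control, and was not called by limma (log2 fold change 0.36, SE 0.09, adjusted p = 0.0582). Ebp and Nsdhl are on the X chromosome, whose 437 tested genes had a median log2 fold change of -0.047.

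Control 3 bore the highest sterol enzyme levels. It was the highest of all 6 libraries for 12 of the 17 tested sterol enzymes (70.6%), against 23.7% of all tested genes, and the highest control for 15. Set against the mean of controls 2 and 4, its level was a median of 1.22 times as high over the sterol enzymes (0.965 to 1.53 times, above 1 for 16 of 17). Over the fatty acid enzymes the median was 1.04 and over all tested genes 0.998. Hmgcs1 had 39.5 FPKM in control 3, against 28.7 and 29.3 FPKM in controls 2 and 4, and Cyp51 had 22.9 FPKM there, against 15.4 and 16.03 FPKM. With control 3 left out the median log2 fold change of the sterol enzymes was -0.10 in place of -0.20, and none was called by limma.

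**Figure D5:**
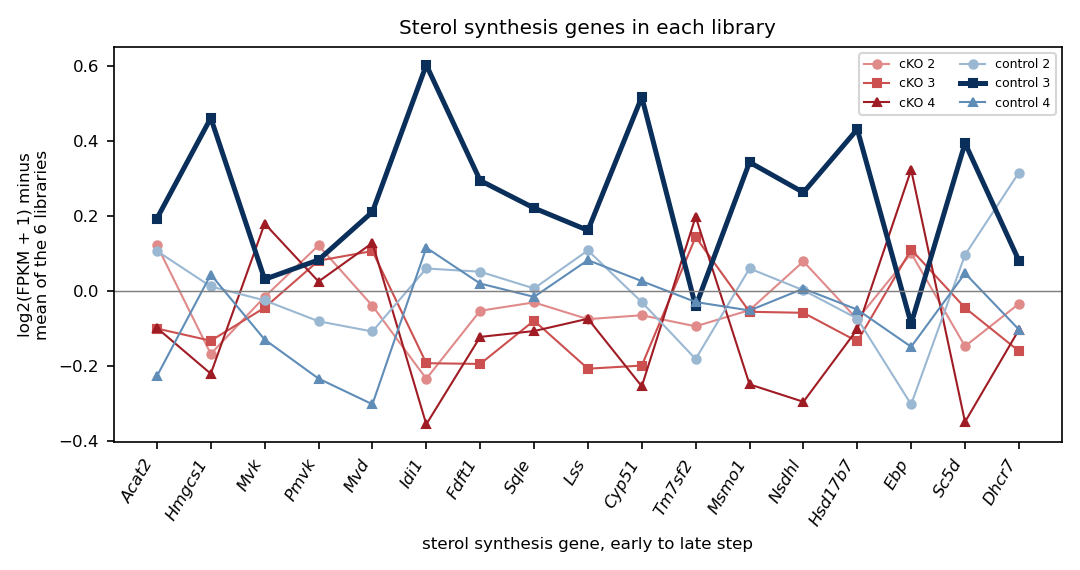
Lines join the 17 tested sterol enzymes in pathway order (x axis) for each library, with log2(FPKM + 1) minus the mean of the 6 libraries on the y axis. Control 3, the thick dark line, is the highest library for 12 of the 17 enzymes, and at Ebp the 3 cKO lines lie above all 3 controls.

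Control 3 also differed in cell type markers. Of 10 macrophage markers 8 were lowest in control 3, against 24.1% of all tested genes. Among them was Adgre1, at 59.7 FPKM there, against 111 and 89.6 FPKM in controls 2 and 4 and 97.7 to 134 FPKM in cKO. Lyz2 was instead highest in control 3 among the controls, at 1371 FPKM, against 1295 and 1276 FPKM in controls 2 and 4. Summed macrophage markers, mostly Lyz2, were 1950 to 2708 FPKM in cKO and 1724 to 1976 FPKM in controls. None of the 10 was called by limma or voom. An unadjusted p under 0.05 was reached by 1, or 10%, against 28.8% of all tested genes. Stromal and bone progenitor markers, mostly Col1a1 and Col1a2, summed to 3390 to 4765 FPKM in cKO and 4284 to 4634 FPKM in controls. Among these 10 Twist1 was called higher and Prrx1 lower, against 5.04% and 2.57% of all tested genes. In control 3, 2 of the 10 were the highest of all libraries, Col1a2 and Sp7, and 1 was the lowest, Thy1. Sp7 had 77.2 FPKM in control 3, against 28.8 and 40.4 FPKM in controls 2 and 4 and 45.4 to 69.2 FPKM in cKO. Alpl had 196 FPKM there, against 90.0 and 101 FPKM in controls 2 and 4 and 138 to 236 FPKM in cKO. The part of cell makeup in the levels of the lipid genes was not tested.

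Adipocytes express many of these enzymes at high levels, so adipocyte markers are given beside them. Summed over the 9 of 10 markers in the table they were 255 to 280 FPKM in cKO and 112 to 143 FPKM in controls, mostly from Cebpa, and Adipoq and Cebpa were called higher. Adipoq was at 1.88 ± 0.0561 FPKM in cKO and 0.196 ± 0.106 FPKM in controls, where it rested on 3 to 9 reads per library. It passed the filter on low values only through cKO, the group where it is high, which limits its call. Plin1, which coats adipocyte lipid droplets, stayed under 0.15 FPKM in all libraries. Pparg, Fabp4 and Lipe overlapped between the groups and were not called, and Pnpla2 lay higher in cKO without overlap and was not called (limma adjusted p = 0.0621). The granulocyte markers, mostly S100a8 and S100a9, summed to 62.3 to 186 FPKM in cKO and 4.43 to 28.6 FPKM in controls. Of 3 tested, 0 were called by limma and 2 were higher by voom, against 954 of all 13326 tested genes higher by voom. All 3 had an unadjusted p under 0.05, against 28.8% of all tested genes. All 3 also lay higher in cKO without overlap, against 17.9%. Endothelial markers summed to 12.98 to 15.09 FPKM in cKO and 18.3 to 23.6 FPKM in controls. Among the 5, Emcn was called lower by limma, against 2.57% of all tested genes. By voom 4 were lower, against 540 of all 13326 tested genes. Without overlap 4 lay lower, against 17.8% of all tested genes. The erythroid markers summed to at most 0.342 FPKM. Proliferation genes summed to 62.7 to 75.8 FPKM in cKO and 72.3 to 78.2 FPKM in controls, with 0 of 8 called by limma or voom (3 at an unadjusted p under 0.05, or 37.5%, against 28.8% of all tested genes).

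Genes that feed, drain or sense these routes give the surroundings of the members. Of 25 tested genes of sterol uptake, efflux, storage and sensing 2 rose and none fell, against 5.04% and 2.57% of all tested genes. The median log2 fold change of the 25 was 0.04. Nr1h3, the oxysterol receptor LXR-alpha, which is known to induce sterol efflux genes and Srebf1, had 10.1, 10.2 and 11.8 FPKM in cKO 2, 3 and 4, against 6.35, 6.21 and 6.36 FPKM in controls 2, 3 and 4. The groups were far apart (log2 fold change 0.68, SE 0.07, limma adjusted p = 0.00782), although the adjusted p was 0.0513 without control 4 and 0.0526 with a term for the replicate number. Stard3, a sterol carrier of late endosomes, had 15.81, 16.44 and 16.01 FPKM in cKO 2, 3 and 4, against 13.24, 12.19 and 12.05 FPKM in controls 2, 3 and 4 (log2 fold change 0.34, SE 0.06, adjusted p = 0.0222). It lost its call without cKO 2, 3 or 4 (adjusted p = 0.0658, 0.0894 and 0.0597), without control 4 (0.101) and with the replicate term (0.0863).

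The genes next named from this list were picked with their values in view, as genes that lay higher in cKO. Over the 25 genes, 7 lay higher and 4 lower without overlap, against 17.9% and 17.8% of all tested genes. A response of LXR targets was not tested. The efflux transporter Abca1 had 14.3, 15.6 and 14.6 FPKM in cKO 2, 3 and 4, against 12.4, 5.24 and 12.2 FPKM in controls 2, 3 and 4, and its partner Abcg1 had 10.02, 11.41 and 12.56 FPKM in cKO, against 9.28, 2.80 and 7.27 FPKM in controls. Neither overlapped between the groups and neither was called (limma adjusted p = 0.214 and 0.166), with control 3 the lowest library for both. Mylip, whose product degrades lipoprotein receptors, was at 18.1 ± 1.85 FPKM in cKO and 14.4 ± 1.16 FPKM in controls (adjusted p = 0.0886).

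Of 28 tested genes of fatty acid supply, elongation and triglyceride synthesis 2 rose and 2 fell, against 5.04% and 2.57% of all tested genes. The median log2 fold change of the 28 was -0.09. Hsd17b12, the ketoreductase of the elongation cycle, had 23.6, 25.6 and 23.5 FPKM in cKO 2, 3 and 4, against 33.7, 37.5 and 31.6 FPKM in controls 2, 3 and 4 (log2 fold change -0.48, limma adjusted p = 0.0206). Lpin3, a phosphatidate phosphatase, had 3.482, 3.556 and 4.001 FPKM in cKO 2, 3 and 4, against 5.65, 6.21 and 5.42 FPKM in controls 2, 3 and 4 (-0.53, adjusted p = 0.0147). The groups did not overlap for either gene. Agpat1, an acyltransferase, and Plin3, a lipid droplet coat, averaged 37.7 ± 3.51 and 51.1 ± 4.64 FPKM in cKO, against 29.5 ± 1.07 and 39.2 ± 2.82 FPKM in controls (adjusted p = 0.0492 and 0.0494), and both lost their calls whichever library was left out (0.0518 to 0.157 and 0.0638 to 0.141). Lpin3 lost its call without cKO 3 (0.0608), control 4 (0.0599) or with the replicate term (0.0665), and Hsd17b12 without any of the cKO libraries (0.0604 to 0.0675), without control 4 (0.0604) or with that term (0.0580).

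Of 17 tested genes listed under fatty acid oxidation 1 fell and none rose, against 2.57% and 5.04% of all tested genes. The 1 that fell, Pdk4, does not itself oxidize fatty acids, and the other 16 were not called. Pdk4, the kinase that shuts off pyruvate dehydrogenase, had 15.98, 17.79 and 18.41 FPKM in cKO 2, 3 and 4, against 23.96, 30.76 and 26.41 FPKM in controls 2, 3 and 4 (log2 fold change -0.60, SE 0.10, limma adjusted p = 0.0222). It lost its call without cKO 2, 3 or 4 (0.0675, 0.0765 and 0.0518), without control 4 (0.0894) and with the replicate term (0.0571). No gene of the isoprenoid branch, which prenylates proteins and makes dolichol and ubiquinone, was called among 12 tested by limma or voom (3, or 25%, at an unadjusted p under 0.05, against 28.8% of all tested genes).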

How the data were processed

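Per the labels' protocols, poly-T selected RNA went into a NEBNext Ultra kit. The authors deposited FPKM, with 1 column per library. The submitters' processing notes name HTSeq 0.6.0 and DESeq2 1.10.1 without a role. Aligner, build and strandedness are not given in the sources used, so reads of overlapping antisense genes may be mixed. GENCODE vM21 (GRCm38) gave symbols, coordinates and GC content by Ensembl identifier (23510 genes with a symbol, 112 without), and RefSeq (GRCm38.p6) gave promoters. Members and lists were chosen with earlier results of these data known. Every member was to be accounted for, with values per library for called members, regulators and the member of each role with the largest log2 fold change among those not called, and from each list called genes were named; others were named after their values were seen. A further gene is not reported here.

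Values of log2(FPKM + 1) for the 13326 genes averaging 0.5 FPKM or more went into limma 3.58.1, run in R 4.3.3 (moderated test, intensity trend, 2-sided, Benjamini-Hochberg, 0.05, no covariate). Low FPKM values step by the worth of 1 read, and reads came out whole (within 1e-06) in 100.0% of the 23427 genes above 0. They summed to 16489634 to 28945415 per library in cKO and 20159589 to 21271671 in controls. On these reads voom called 954 genes higher and 540 lower. The number of counted reads limits precision most for Fdps, at 23 to 55 per library, where reads shared with Gm43738 may not have been counted. Other alternatives were another pseudocount or filter, scalings, library weights, other variance priors, a replicate term, a GC correction (loess, span 0.5), dropping X and Y genes, leaving out each library and a threshold of 0.1. The fit was tested on simulated reads. Python 3.11.15, numpy 2.4.6, pandas 2.3.3 and matplotlib 3.10.9 were used.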

Additional observations from a re-analysis of the deposited data

How the results depend on the processing

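Among all tested genes the calls, 672 higher and 342 lower, ranged from 45 to 626 and from 26 to 374 when 1 library was left out. They were 327 and 184 without a filter, 1765 and 1378 with library weights, 42 and 22 with a replicate block, 2 and 4 with a GC correction and that block, and 1346 and 891 at a threshold of 0.1. The GC correction alone gave 416 higher, quantile normalization 560 lower and voom 540 lower. The deviations of cKO and control libraries numbered 2, 3 and 4 correlated at -0.0394, -0.0543 and 0.0346. With 3 libraries a group and no litters named, these values cannot settle whether the numbers pair the libraries. Sterol enzymes, with 0 calls in either direction, had 2 higher and 2 lower with library weights, 1 and 1 with voom, and 1 and 2 at a threshold of 0.1. The 3 lower fatty acid enzymes became 1 without a filter, 0 with the block, with or without the GC correction, and 0 to 1 when 1 library was left out. The 1 higher regulator became 2 with library weights and at a threshold of 0.1, 0 without a filter, with the GC correction and with the block, alone or with that correction, and 0 to 1 when 1 library was left out. The median log2 fold change of sterol enzymes was -0.0892 with library weights and -0.25 to -0.10 with 1 library left out. For fatty acid enzymes it was -0.23 after quantile normalization and -0.17 to -0.16 with 1 library left out. For regulators it was -0.0895 after quantile normalization, -0.10 after the GC correction, with or without the block, and -0.06 to -0.004 with 1 library left out. The sign turned for Acat2 (0.117 with library weights, 0.0347 without control 3, -0.175 to 0.0347 over the fits without 1 library) and, after the GC correction with or without the block, for Mvk (-0.0197), Mvd (-0.0508) and Acacb (-0.0100). The causes were not tested. Of the other values of single members under an alternative, 686 kept their direction and side of the threshold, 15 newly passed it and 35 no longer did. The planned edgeR alternative was not run, since the values are FPKM. With 3 libraries a group, small differences and low genes such as Acss2, Acacb and Fdps are measured least precisely.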
